A study of Mus musculus with 2 samples.

Results

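The 10 heat shock genes described here are Hspa1a, Hspa1b, Hspa8, Hsp90aa1, Hsp90ab1, Hsph1, Dnajb1, Hspb1, Hspe1 and Hspd1. They were chosen by gene symbol from the 40879 symbols counted in each library, and every one of them had a row and reads in both. The samples were mouse intestine of 2 genotypes on a C57BL/6 background, a wild type (WT) and a heterozygote for ERAP1 (ERAP1+/-), an aminopeptidase of the endoplasmic reticulum that trims antigenic peptides. The mutant allele came from an ERAP1 tm1a line crossed with a Cre strain, which removes the exons that lie between its loxP sites. The promoter that drives Cre is not given in the sources used here. The mice were 8 weeks old when assigned to groups, and in the study's design tissue was collected weeks later, at the end of the experiment. They are described as germ-free and were kept in a specific pathogen-free facility. The labels name no treatment for either library, and the paper's discussion describes this RNA comparison as one at steady state. RNA of 3 mice was pooled per genotype, so each genotype has 1 library and the spread between mice cannot be seen.

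Heat shock proteins are chaperones that hold, fold or refold other proteins. HSP70 binds exposed hydrophobic stretches of a client in cycles of ATP hydrolysis, J-domain proteins such as DNAJB1 deliver clients and start hydrolysis, and HSP110 (HSPH1) releases the nucleotide. HSP90 acts later on nearly folded clients such as kinases and steroid receptors, HSPB1 holds unfolded proteins without ATP, and HSP60 (HSPD1) with its lid HSP10 (HSPE1) forms the folding chamber of the mitochondrial matrix. Heat shock factor 1, encoded by Hsf1, binds repeated GAA units in alternating orientation, the heat shock element, and raises transcription of these genes under stress. The intestine also needs these proteins without stress, where HSP25 (HSPB1) and HSP70 are known for protecting the epithelium.

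The libraries sequence the 3' ends of polyadenylated RNA. They held 8114826 counted reads in WT and 8907515 in the library labelled ERAP1+/-. Values are CPM (read counts relative to the library total, each total scaled by TMM, the trimmed mean of M values), or differences of log2(CPM + 1), and the ratio of normalized reads carries an exact 95% interval that covers counting error only. No test between the genotypes was possible with 1 library each. Erap1 itself had 229 reads in WT and 2 in the other library, a ratio of 0.00730 (95% interval 0.000878 to 0.0267). This near absence goes against the label of a heterozygote, and reads from the 3' end lie outside those exons, so the count does not check the deletion. The second library is therefore called HT-labelled, after its library name, and every direction given here rests on that label. Xist had 1635 reads in WT and 6451 in the HT-labelled library, while the Y-linked Ddx3y had 319 and 29, so that the sex of the pooled mice and the genotype cannot be told apart. Markers of intestinal epithelium were abundant in both libraries (72405 and 82916 reads over 12 genes, ratio 0.957, 95% interval 0.947 to 0.966). Muc2 gave 12020 of these reads in WT and 32939 in the HT-labelled library (ratio 2.29). Of the 11 markers past the level set below, 8 had log2 differences below 0 and 3 above (median -0.32). Markers of suprabasal epidermis (14 genes, 22986 and 446 reads) and skeletal muscle (17 genes, 12613 and 1728 reads) were mainly in the WT library. Summed markers of immune cells (10 genes) had 1200 reads in WT and 3784 in the HT-labelled library (ratio 2.63, 95% interval 2.47 to 2.81). Jchain gave 561 and 2788 of these. Of the 4 immune markers past the level, 3 had log2 differences above 0 and 1 below.

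Promoter sequence was available in RefSeq (GRCm38.p6) for 7 of the 10 genes, in 10 windows from 250 bases before to 50 bases after an annotated start. Hspa8, Hsp90aa1 and Hsp90ab1 had no window. The stretches shown hold the paired units of a heat shock element found in these windows, so that the near-identical pair Hspa1a and Hspa1b and the divergent pair Hspe1 and Hspd1 can be compared with their read counts. Capitals mark GAANNTTC or TTCNNGAA, each of which reads the same on both strands and may overlap the other. All are written 5' to 3' on the strand of the gene.
Hspa1a, chr17:34972157-34972306, minus strand: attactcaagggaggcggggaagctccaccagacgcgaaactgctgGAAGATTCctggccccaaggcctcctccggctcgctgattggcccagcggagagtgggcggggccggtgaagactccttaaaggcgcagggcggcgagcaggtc
Hspa1b, chr17:34959239-34959388, minus strand: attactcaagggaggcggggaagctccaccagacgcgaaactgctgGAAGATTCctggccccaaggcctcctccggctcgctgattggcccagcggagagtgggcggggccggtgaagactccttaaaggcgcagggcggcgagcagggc
Hspb1, chr5:135887769-135887918, plus strand: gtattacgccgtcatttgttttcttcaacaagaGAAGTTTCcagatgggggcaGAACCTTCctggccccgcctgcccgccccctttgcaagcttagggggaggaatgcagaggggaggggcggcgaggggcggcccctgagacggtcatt
Hspe1, chr1:55088053-55088082, plus strand: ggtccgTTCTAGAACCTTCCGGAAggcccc
Hspd1, chr1:55088053-55088082, minus strand: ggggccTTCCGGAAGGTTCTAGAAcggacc
Hsph1 before the start, chr5:149636356-149636385, minus strand: ccattgggtagaatctTTCTCGAAggctcg
Hsph1 after the start, chr5:149636278-149636307, minus strand: ctgcagaTTCTGGAAAGTTCtcctcagtag

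Hspa1a and Hspa1b, 2 genes of 1 exon each, lie 9951 bases apart on chromosome 17, and their windows of 300 bases differed at 4 positions (98.7% identical). Counted from the first base of the window, these were C44T, T47C, T249G and C276T, with the Hspa1a base first. In both genes the paired unit GAAGATTC began 104 bases before the start. Hspb1 had 2 such units, beginning 117 and 97 bases before its start. Hspe1 and Hspd1 lie head to head on chromosome 1 and their annotated spans overlap by 112 bases. The element of 18 bases between 55088059 and 55088076 stands in the window of Hspe1, beginning 89 bases before its start. It also stands in 1 of the 2 windows of Hspd1, beginning 144 bases before the downstream start. The window at the upstream start of Hspd1 held no paired unit. In GENCODE M21 the element lies in the 5' untranslated part of exon 1 of the transcript Hspd1-202. In Hsph1 the paired unit TTCTCGAA began 54 bases before the downstream of its 2 annotated RefSeq starts and 33 bases before the other. In GENCODE M21 that unit falls inside the untranslated part of exon 1 of Hsph1-206. A run of 3 units began 15 bases after the downstream start, inside the untranslated part of exon 1 of Hsph1-211. Neither window of Dnajb1 held a paired unit. Of all 32851 promoter windows of this length, 15.1% held GAANNTTC or TTCNNGAA, and 0.603% held a run of 3 units, in which GAANNTTC is followed directly by NNGAA, or its reverse complement. A match describes letters and not binding.

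The levels of the 10 genes spanned 13.9 to 1794 CPM in the WT library. Counts from 3' ends do not scale with transcript length, so the genes were ranked directly on CPM. The ranks of Hspa8, Hspe1 and Hspb1 also depend on how reads shared with other genes were assigned, as given below. Hsp90ab1, the constitutive cytosolic HSP90, was far above the others at 1794 CPM in WT and 2112 CPM in the HT-labelled library, and it took 72.0% and 71.7% of the reads of the 10 genes. Hspa8, the constitutive HSP70, and Hsp90aa1, the inducible HSP90, followed in WT with 1558 and 1541 reads, which differed by less than counting error (ratio 1.01, 95% interval 0.942 to 1.09). Hspd1 and Hspe1 came next in WT and were also level with each other (573 and 546 reads, ratio 1.05, 95% interval 0.932 to 1.18). Dnajb1, Hspb1, Hspa1b, Hsph1 and Hspa1a were the lowest there, and Hspa1b and Hsph1 were not separated by counting error (218 and 184 reads, ratio 1.18, 95% interval 0.969 to 1.45). In the HT-labelled library the order differed in 2 places: Hsp90aa1 stood above Hspa8 (ratio 1.18, 95% interval 1.11 to 1.25), and Hsph1 stood above Hspa1b (ratio 2.04, 95% interval 1.68 to 2.49). Hsph1 was there level with Hspb1, the next gene up (316 and 329 reads, ratio 1.04, 95% interval 0.889 to 1.22).

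**Figure D1:**
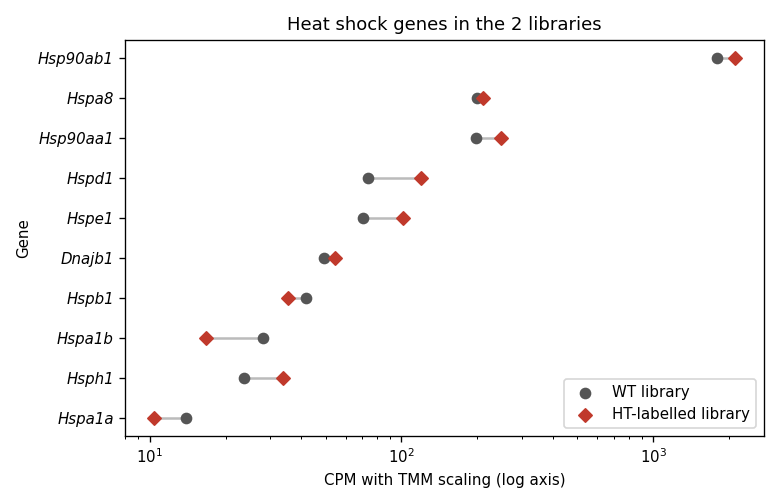
Level of each heat shock gene in CPM with TMM scaling on a log axis, with 1 gene per row, the WT library as circles and the HT-labelled library as diamonds (1 library each, no error bars). Hsp90ab1 lies at 1794 and 2112 CPM, and Hspa1a, Hspa1b and Hspb1 are the 3 genes whose diamond lies to the left of the circle.

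Of the 10 genes, 7 were higher and 3 were lower in the HT-labelled library than in WT, and no gene differed by 2-fold. A level was set that a gene passed where its log2(CPM + 1) reached 4 in either library or in both. A gene could thus pass through 1 library alone, so that a difference could itself bring a gene past the level. Of the 9 genes past it, 1 (Hspd1) was higher and 1 (Hspa1b) was lower by more than 1.5-fold. Among all 8013 symbols past that level, 5.54% were higher and 10.02% were lower by more than 1.5-fold, 1.39% were higher and 3.96% lower by more than 2-fold. The tenth gene, Hspa1a, was just under the level, with log2(CPM + 1) values of 3.90 and 3.51. The 95% counting interval of the ratio lay above 1 for 5 of the 9 genes, below 1 for 2, and included 1 for the others. Over all symbols past the level it lay above 1 for 25.5% and below 1 for 32.4%. These intervals narrow as reads increase, and the shares were not matched for read depth. The median log2 difference of the 9 genes was 0.24, beside a median of -0.03 over all symbols past the level, whose quartiles were -0.28 and 0.21.

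**Figure D2:**
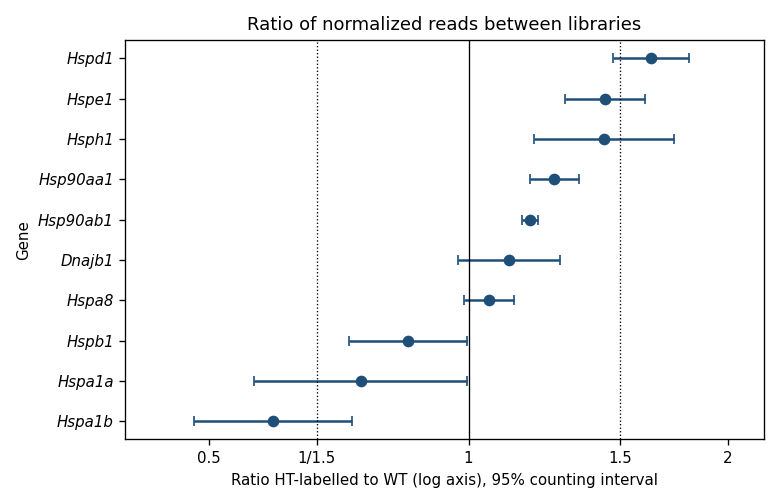
Ratio of normalized reads, HT-labelled to WT, for each heat shock gene on a log axis, where bars are exact 95% intervals for counting error and dotted lines mark 1.5-fold in each direction. Hspd1 has the highest ratio (1.63) and Hspa1b the lowest (0.594), and the intervals of Hspa8 and Dnajb1 include 1.

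Both stress-inducible HSP70 genes were lower in the HT-labelled library. Hspa1b (chr17:34956436-34959238) had 218 reads in WT and 155 in the HT-labelled library, or 28.1 and 16.7 CPM. Its ratio was 0.594 (95% interval 0.480 to 0.733), a log2 difference of -0.72. Hspa1a (chr17:34969190-34972156) had 108 and 97 reads, or 13.9 and 10.4 CPM, a ratio of 0.750 (95% interval 0.564 to 0.996). The interval of Hspa1a ended just under 1, and it included 1 with scaling by the total count or by upper quartiles. Summed, the pair had 326 and 252 reads and a ratio of 0.646 (95% interval 0.546 to 0.763). The ratio of Hspa1a to Hspa1b reads within a library did not differ between the libraries beyond counting error (49.5 and 62.6 per 100 Hspa1b reads, odds ratio 1.26, 95% interval 0.883 to 1.81). The proteins of the pair are near-identical, but none of the 326 possible reads of 75 bases from the last 400 bases of either transcript occurred in a transcript of another gene in GENCODE M21.

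Hspa8 (chr9:40800984-40810087), the HSP70 that cells make without stress, had 1558 and 1970 reads, or 201 and 212 CPM, and its ratio of 1.06 was within counting error of 1 (95% interval 0.988 to 1.13). The inducible pair made up 20.9 reads per 100 Hspa8 reads in WT and 12.8 in the HT-labelled library. The odds ratio of this comparison, which does not depend on library scaling, was 0.611 (95% interval 0.510 to 0.733). Of the possible reads from the last 400 bases of Hspa8, 74.8% also occurred in annotated transcripts of 8 other genes, none of which had a row in the files, so that the Hspa8 count depends on how shared reads were assigned.

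Of the 2 cofactors of HSP70 among the 10 genes, Hsph1 was higher in the HT-labelled library, and the interval of Dnajb1 included 1. Hsph1 (chr5:149614287-149636376), the HSP110 that exchanges the nucleotide of HSP70, had 184 and 316 reads, or 23.7 and 34.0 CPM, a ratio of 1.43 (95% interval 1.19 to 1.73). Against Hspa8 within each library it went from 11.8 to 16.0 reads per 100 (odds ratio 1.36, 95% interval 1.11 to 1.66). Hsph1 thus lay on the other side of Hspa8 from the inducible HSP70 pair. Dnajb1 (chr8:83608193-83612653), the stress-inducible J-domain protein, had 381 and 508 reads, or 49.0 and 54.6 CPM, and an interval that included 1 (ratio 1.11, 95% interval 0.973 to 1.28). Its reads per 100 Hspa8 reads were 24.5 and 25.8, with an odds ratio of 1.05 (95% interval 0.907 to 1.23).

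Both cytosolic HSP90 genes were higher in the HT-labelled library. Hsp90aa1 (chr12:110690605-110702728) had 1541 and 2320 reads, or 198 and 249 CPM, a ratio of 1.26 (95% interval 1.18 to 1.34). Hsp90ab1 (chr17:45567775-45573271) had 13940 and 19647 reads and a ratio of 1.18 (95% interval 1.15 to 1.20), the narrowest interval of the 10 because of its depth. The inducible form made up 11.1 reads per 100 of the constitutive form in WT and 11.8 in the HT-labelled library, and the odds ratio was 1.07 with an interval that just included 1 (0.998 to 1.14). The inducible and the constitutive HSP90 therefore did not separate between the libraries in the way that the inducible and the constitutive HSP70 did.

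Both genes of the mitochondrial chaperonin were higher in the HT-labelled library, Hspd1 with the highest ratio of the 10 genes and Hspe1 with a ratio whose interval overlapped that of Hsph1. Hspd1 (chr1:55077835-55088243) had 573 reads in WT and 1117 in the HT-labelled library, or 73.7 and 120 CPM. Its ratio was 1.63 (95% interval 1.47 to 1.80), a log2 difference of 0.70. Hspe1 (chr1:55088132-55091307) had 546 and 941 reads, or 70.3 and 101 CPM, a ratio of 1.44 (95% interval 1.29 to 1.60) and a log2 difference of 0.52. These neighbours, which share the heat shock element printed above, were both higher, and their ratio to each other was 95.3 and 84.2 Hspe1 reads per 100 Hspd1 reads (odds ratio 0.884, 95% interval 0.762 to 1.03). Their sum per 100 reads of 12 other mitochondrial chaperones and proteases was 37.5 in WT and 49.7 in the HT-labelled library (odds ratio 1.32, 95% interval 1.21 to 1.45), a denominator chosen after the values were seen. Of 7 transcripts of the mitochondrial genome past the level, a list added after the values were seen, 2 had log2 differences above 0 and 5 below (median -0.07). The list held 12 transcripts, and 4 of them (COX2, COX3, ATP6 and ATP8) had 0 reads in both libraries. Summed markers of proliferation differed in the same direction as the chaperonin: the reads of 12 such genes, chosen after the values were seen, were 2781 and 4840, a ratio of 1.45 (95% interval 1.39 to 1.52), beside 1.54 (95% interval 1.43 to 1.65) for Hspd1 and Hspe1 together. Of the 11 past the level, 4 were higher by more than 1.5-fold. Top2a had 894 and 1563 reads and Mki67 had 464 and 787, while the intervals of Pcna, Mcm2, Mcm3 and Mcm5 included 1 (ratios 1.01, 1.05, 1.05 and 1.13). The part of proliferating cells in the chaperonin result was not tested, and in a tissue library more cells of a type and more RNA per cell cannot be told apart. Of the possible reads from the end of Hspe1, 41.7% also occurred in transcripts of 2 other genes without a row, and none did for Hspd1.

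Hspb1 (chr5:135887919-135889563), the small heat shock protein HSP25, had 323 and 329 reads, or 41.6 and 35.4 CPM, a ratio of 0.851 whose interval ended just below 1 (0.728 to 0.995) and included 1 with scaling by the total count or by upper quartiles. Its transcript is known from smooth and striated muscle and from stratified epithelium as well as from the intestinal epithelium. The smooth muscle markers were lower in the HT-labelled library, all 10 of them by more than 1.5-fold, and their summed reads were 89870 and 55080 (ratio 0.512, 95% interval 0.507 to 0.517). Acta2, Tagln and Mylk, the markers with the most reads, had 18222, 18546 and 18018 reads in WT and 12927, 9767 and 10263 in the other library. Hspb1 was lower by less than these markers: it had 0.359 reads per 100 smooth muscle marker reads in WT and 0.597 in the HT-labelled library (odds ratio 1.66, 95% interval 1.42 to 1.94). This comparison with the markers was not planned in advance. Summed markers of skeletal muscle were 1623 CPM in WT and 186 CPM in the HT-labelled library, and those of suprabasal epidermis were 2958 and 47.9 CPM. The part of muscle and epidermis in the Hspb1 count was not tested. Of the possible reads from its end, 37.1% also occurred in 1 other annotated gene without a row.

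**Figure D3:**
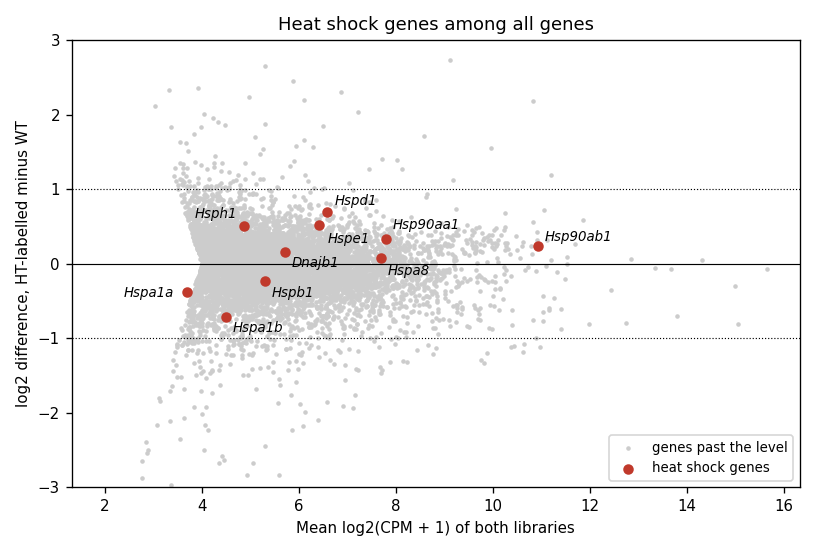
Mean log2(CPM + 1) of both libraries against the log2 difference, HT-labelled minus WT, for the 8013 symbols past the level (grey) and the 10 heat shock genes (red), with dotted lines at 2-fold. The 10 genes lie between -0.72 and 0.70, inside the dotted lines, and 124 symbols lie beyond the axis limits.

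The 9 lists of other chaperone and stress genes held 95 genes, of which 94 were in the files and 81 passed the level. Of the 81, 3 were higher (3.70%) and 8 were lower (9.88%) by more than 1.5-fold, beside 5.54% and 10.02% of all symbols. Hsf1, the master regulator, had only 29 and 62 reads and stayed under the level (ratio 1.79, 95% interval 1.13 to 2.88). The related factor Hsf2 had 151 and 154 reads and the binding protein Hsbp1 had 987 and 1137, and neither passed 1.5-fold.

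Of the other HSP70 and HSP110 genes, 5 passed the level and 1 was lower by more than 1.5-fold, Hspa12a, an atypical HSP70 relative, with 157 and 88 reads (ratio 0.468, 95% interval 0.356 to 0.612). Hspa12a passed the level only through WT (log2(CPM + 1) of 4.41 in WT and 3.39 in the HT-labelled library). The median log2 difference of this list was -0.01. Of 12 other J-domain genes past the level, 1 was lower by more than 1.5-fold, Dnajc5, which encodes cysteine string protein, a chaperone of secretory vesicles, with 1929 and 1366 reads (ratio 0.592, 95% interval 0.552 to 0.634). The median of the list was -0.10, and both medians had the opposite sign when libraries were scaled by their totals alone. With upper quartile factors the median of the HSP70 and HSP110 list was also above 0 (0.02). Of the 7 nucleotide exchange factors, 6 passed the level and none of these passed 1.5-fold. Their log2 differences ran from -0.30 for Bag3, a stress-inducible partner of HSP70 and the small heat shock proteins, to 0.12 for Hspbp1. Bag2, under the level, had 84 and 38 reads (ratio 0.378, 95% interval 0.251 to 0.561).

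Of the 7 other small heat shock proteins in the files, 3 passed the level, and all 3 were lower in the HT-labelled library by more than 1.5-fold under TMM, with a median log2 difference of -0.97. Cryab fell short of 1.5-fold with scaling by the total count (log2 difference -0.49) and by upper quartiles (-0.58). Hspb8, which works with Bag3, had 1537 and 712 reads (ratio 0.387, 95% interval 0.354 to 0.423). Hspb6, a small heat shock protein of muscle, had 603 and 365 reads (ratio 0.506, 95% interval 0.443 to 0.577), and Cryab (αB-crystallin) had 408 and 317, a ratio of 0.649 (95% interval 0.559 to 0.753). Cryab, Hspb2, Hspb6, Hspb7 and Hspb8 together made up 2.95 reads per 100 smooth muscle marker reads in WT and 2.67 in the HT-labelled library, an odds ratio of 0.903 (95% interval 0.846 to 0.964). This comparison was not planned in advance. Hspb8 gave 1537 of the 2654 WT reads of this sum and had a ratio below that of the smooth muscle markers, the interval of Hspb6 included theirs, and Cryab lay above it. Markers of skeletal muscle were lower by more than 1.5-fold for 14 of 15 genes past the level (all but Eno3, with 1331 and 1485 reads) and those of suprabasal epidermis for 12 of 12. Of these epidermal genes Ivl, Dsc1 and Kprp had 0 reads in the HT-labelled library, and the part of both tissues in the small heat shock protein counts was not tested.

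Among genes that assist HSP90 and among the other chaperonins, 1 passed 1.5-fold. Of 15 genes past the level in the list of HSP90 co-chaperones, this was Ppid (cyclophilin 40), with 88 and 197 reads (ratio 1.87, 95% interval 1.45 to 2.43). Ppid passed the level only through the HT-labelled library (log2(CPM + 1) of 3.62 in WT and 4.47 in the HT-labelled library). The median log2 difference of the list was 0.01, and the list also holds Tsc22d3 (log2 difference -0.56), which is not a co-chaperone of HSP90. The planned list joined CCT and prefoldin (14 genes, median 0.16), and its split into these 2 parts was not planned. All 8 subunits of CCT, the cytosolic chaperonin that folds actin and tubulin, had log2 differences above 0 (0.09 to 0.42, median 0.19). The counting interval lay above 1 for 6 of the 8, beside 25.5% of all symbols past the level, but none passed 1.5-fold. That share was not matched for read depth, which sets the width of an interval. Cct4 was the highest, with 609 and 977 reads (ratio 1.34, 95% interval 1.21 to 1.49). The 6 prefoldin subunits, which pass clients to CCT, had a median of 0.10, and the counting interval lay above 1 for 1 of them. Of 11 mitochondrial chaperones and proteases past the level, none passed 1.5-fold, with a median of 0.21 and a range from -0.20 to 0.47 for Trap1, the mitochondrial HSP90 (153 and 257 reads). Hspa9, the mitochondrial HSP70, had 1110 and 1643 reads and a ratio of 1.24 (95% interval 1.15 to 1.34), below that of Hspd1. Cct4, Trap1, Bag2, Bag3, Hspbp1, Hspa9, Hsf2 and Hsbp1 were picked out after their values were seen.

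**Figure D4:**
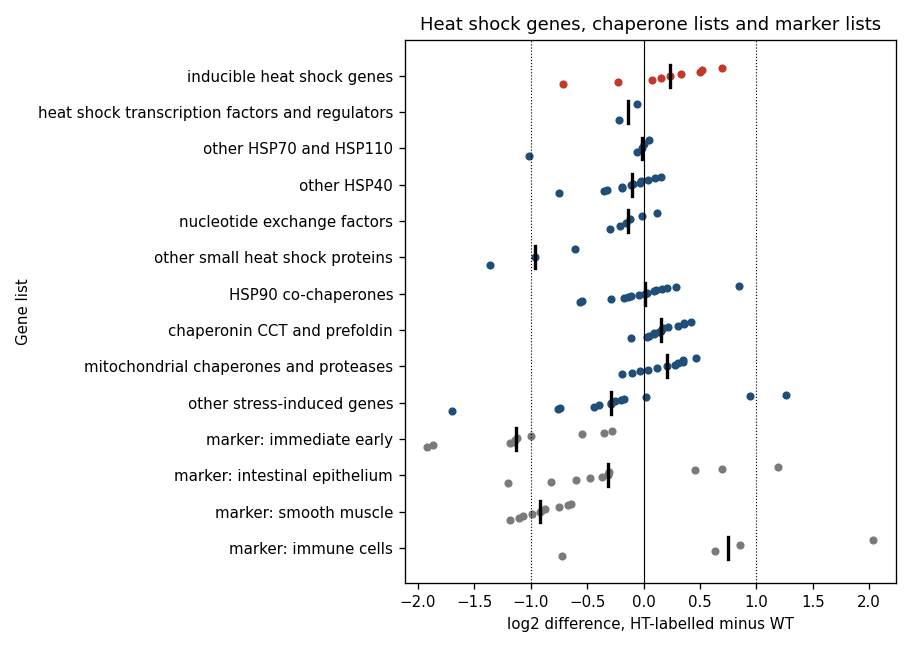
log2 difference, HT-labelled minus WT, of each gene past the level in the heat shock genes (red), the 9 chaperone and stress lists (blue) and 4 marker lists (grey), where black bars are list medians and dotted lines mark 2-fold. The other small heat shock proteins (median -0.97) and the immediate early genes (median -1.13) lie to the left of 0, and the heat shock genes lie on both sides.

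Of 13 other stress-induced genes past the level, 2 were higher and 3 were lower by more than 1.5-fold. Both metallothioneins, which bind zinc and copper, were higher: Mt2 had 1385 and 4000 reads (ratio 2.41, 95% interval 2.27 to 2.57) and Mt1 had 2219 and 5114 (ratio 1.93, 95% interval 1.83 to 2.02). Gadd45b, a stress-responsive growth arrest gene, had 213 and 72 reads and was lower (ratio 0.282, 95% interval 0.213 to 0.370). Gadd45b passed the level only through WT (log2(CPM + 1) of 4.83 in WT and 3.13 in the HT-labelled library). Ier5, an early induced gene that promotes heat shock factor 1 activity, had 895 and 630 reads (ratio 0.588, 95% interval 0.530 to 0.652). In all, 10 of the 13 had log2 differences below 0 and 3 above (median -0.29).

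Immediate early genes, which respond within minutes to stimulation, differed in the same direction as the inducible HSP70 pair. All 10 of them had log2 differences below 0, from -1.92 to -0.28 with a median of -1.13, and 7 were lower by more than 1.5-fold. Their summed reads were 7860 in WT and 4899 in the HT-labelled library (ratio 0.521, 95% interval 0.502 to 0.540). Junb had 1937 and 1156 reads, Jun had 1746 and 1429, and Fos had 956 and 522. The part of such a response in the Hspa1a and Hspa1b difference was not tested.

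Scaling changed sizes but turned no direction of the 10 genes. With scaling by the total count alone, 7 counting intervals lay above 1, among them those of Hspa8 (ratio 1.15) and Dnajb1 (ratio 1.21), and 1 lay below 1, that of Hspa1b (ratio 0.648), since those of Hspa1a (0.818) and Hspb1 (0.928) then included 1. With upper quartile factors 6 lay above 1 and 1 lay below. The share of all symbols on each side of 1 was not counted under either scaling. Both moved all symbols upward: the median past the level rose by 0.13 on the log2 scale with the total count and by 0.03 with upper quartiles. The differences of Hspd1, Hspe1, Hsph1, both HSP90 genes and Hspa1b kept their side of 1 with intervals that did not include it under all 6 scalings.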

How the data were processed

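RNA of mouse intestine was sequenced from 1 pooled library per genotype. Per the study's methods, the authors prepared 3' end libraries (QuantSeq 3' mRNA-Seq FWD), read them single-end, trimmed with bbduk, aligned with STAR and counted with HTSeq-count, while a later passage of the methods, like the submitters' processing notes, names Bowtie2 and RSEM on GRCm38 (in the methods, GENCODE v23 transcripts). Tool versions are not given in the sources used here, and which counter made the files could not be settled. The deposited values were whole-number read counts per gene symbol, not normalized. Rows of mitochondrial and ribosomal RNA held 18.0% (WT) and 16.7% (HT-labelled) of the reads.

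Counts were scaled by TMM (edgeR 4.0.16 in R 4.3.3) to CPM, and differences were taken on log2(CPM + 1), which understates the change of low genes. Exact conditional 95% intervals of ratios (scipy 1.17.1, Python 3.11.15) cover counting error only. They take each read as independent. Reads carried no molecular identifiers, so that copies from amplification would leave these intervals too narrow. With 1 library per genotype no p-value was computed. Symbols whose log2(CPM + 1) reached 4 in either library or in both were counted past 1.5-fold and 2-fold. The scripts were tested on simulated counts. The genes named were the 10 heat shock genes, Hsf1, at most 4 genes per list past 1.5-fold with the largest differences, and at most 3 markers per list with the most reads, and others are named as chosen after seeing values. The heat shock genes, lists and rules were chosen with earlier results of these data known. Alternatives were other scalings (DESeq2 1.42.0 size factors, upper quartile, total count), pseudocounts, levels and denominators. Promoter windows came from RefSeq and gene positions from GENCODE M21, a different release from that of the methods.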

Additional observations from a re-analysis of the deposited data

How the results depend on the processing

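With scaling by the total count alone, which moved the median of all symbols past the level by 0.13 on the log2 scale, 3 of the heat shock genes were higher by more than 1.5-fold (Hspd1, Hspe1 and Hsph1), and the median of the other stress-induced genes was -0.16. Under that scaling, 757 of all 8043 symbols past the level were higher by more than 1.5-fold and 563 were lower. With a level of at least 6, 0 of the heat shock genes were lower by more than 1.5-fold, since Hspa1b did not reach that level. With Hspd1 in place of the planned denominator, the odds ratio was 0.397 for Hspa1a plus Hspa1b, 0.772 for Hsp90aa1, 0.684 for Dnajb1 and 0.881 for Hsph1, and with Hspa8 in place of Hspd1 it was 1.36 for Hspe1. Hspd1 itself was higher in the HT-labelled library (ratio 1.63). No heat shock gene changed direction under any scaling tried. No paired analysis was possible because only 1 library stands for WT and 1 for the other genotype. No library could be left out, and the spread between mice, which the pools hide, is in no interval given here.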
